A study of Homo sapiens with 17 samples.

Results

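Polymerase pausing sites in 7 genes of nucleolar ribosome assembly, NPM1, NCL, FBL, NOP56, NOP58, DKC1 and NOLC1, were examined in HEK293 cells, a human line derived from embryonic kidney. The sites are the rows of 4 deposited pausing time tables that lie inside the span of one of these genes on its own strand, by GENCODE release 29 on GRCh38. The 7 genes, of 58735 annotated, held 125 of 48566 sites in sarkosyl replicate 1, 126 of 47713 in sarkosyl replicate 2, 165 of 66089 in sarkosyl-free replicate 1 and 88 of 41769 in sarkosyl-free replicate 2. Over the 4 tables together they held 350 of 158141 distinct positions.

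In time-variant precision run-on sequencing, engaged polymerases are left to extend their RNA for a set time, and the RNA 3′ end marks where each polymerase stood. Run-on lasted 0.5, 2, 8 or 32 min with the detergent sarkosyl in the run-on buffer or without it. The cells carried no treatment in these 16 libraries by their labels, and 1 further sample of the 17, labelled Trp treatment, was not analysed here. The design text calls the 2 replicates of each time biological duplicates. Each table is called a series here. By its name and the sample titles, it was taken as a fit over the 4 run-on times of 1 buffer and 1 replicate. On that reading 16 libraries gave 4 series, 2 per buffer. Each row gives a rate and its reciprocal, the pausing time, whose unit of time was not stated. The tables hold no read numbers, so the depth behind a site is unknown, and a gene without a site is only not listed. No batch is named in the labels, and one that moved with the buffer cannot be told apart from it. All cells were of 1 line, so the results hold for that line.

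The median pausing time over all sites was, replicate 1 first, 1.49 and 1.34 with the detergent against 2.23 and 8.00 without it. Pausing times are given as deposited unless a sentence says that they are relative to a median of the same series. Differences fitted by limma and differences between replicates are on centred log2 values. As a look at the cell label, 4 or 5 of 8 genes typical of HEK293 held a site in each series, led by VIM with 10 to 20 sites. PAX2, NES and NEFM of that list held no site in any series. Of 10 markers of blood, liver, muscle, epidermis and fibroblasts, HBB held 6 to 8 sites in each series, more than GATA3 or HAND2. PTPRC held 1 site in sarkosyl replicate 2, and the other 8 held no site. These counts do not settle the cell label.

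Ribosomes are assembled in the nucleolus, where the precursor ribosomal RNA is transcribed, chemically modified, cut and folded onto proteins. The modifications are guided by small nucleolar RNAs (snoRNAs), which in human cells are mostly cut out of the introns of other genes, their hosts. Box C/D snoRNAs direct 2′-O-methylation by the methyltransferase FBL (fibrillarin), which works with the core proteins NOP56 and NOP58. Box H/ACA snoRNAs direct pseudouridylation by DKC1 (dyskerin). NCL (nucleolin) and NPM1 (nucleophosmin) are abundant nucleolar proteins that bind ribosomal RNA and chaperone its assembly, and NOLC1 (Nopp140) is a chaperone of the snoRNA-protein particles.

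Most of the sites of these genes that were listed in all 4 series, 10 of 15, lay at the 3′ ends of snoRNAs in their introns. Of the 7 genes, 4 host 14 annotated snoRNAs on their own strand: NOP56 hosts 5, NOP58 hosts 4, NCL hosts 3 and DKC1 hosts 2. For 13 of the 14, all but SNORA56 in DKC1, each of the 4 series held a site within 8 bp of the annotated last base of the snoRNA. The last 30 bases of these snoRNAs, read from the GENCODE transcripts on GRCh38, are shown because the sites kept a near-fixed distance to a sequence box there. Capitals mark the last box of the snoRNA (CTGA, the D box of C/D snoRNAs, searched in the last 20 bases, or ACA in H/ACA snoRNAs, searched in the last 8, both on the RNA strand) and, after it, the base at which most series held the site. In SNORD57 the site lay 2 bases past the annotated end and is not shown, and in SNORD56 2 series held the marked base and 2 the base after it.
SNORD20: attcctctagatagtcaagttCTGAtccaG
SNORD82: ctgatgttacattgtagtgtgCTGAtgtgC
SNORD110: aatcactgatgtctccatgtctCTGAgcaA
SNORD86: gtgatggccagtcctggtgtCTGAgtgaTt
SNORD56: agtgagtgttgagactctgggtCTGAgtgA
SNORD57: gcaaaaaaactgatttaatgagcCTGAtcc
SNORD70: attcgtcactaccaCTGAgacaAcgatgaa
RF00575: attcgtcactaccaCTGAgacaAcattgag
SNORD11B: gttcagtcactacctcatCTGAtgccaTca
SNORD11: catctttagtcactacctcttCTGAgacAc
SNORA36A: ttctattcatttgcctcccagcctACAaaA
SNORA75: aggtatatttagctgtattgtgagACAttC
SNORA51: ctggtctgtattgtgaatgggggaACAtaG

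In the 10 C/D snoRNAs the site nearest the annotated end lay 4 to 6 bases after the CTGA box in 3 of the 4 series. Its median distance was 5 in every series. The exception was SNORD82 in sarkosyl replicate 1, where the nearest site lay 2 bases after the box. In the 3 H/ACA snoRNAs with a site, SNORA36A of DKC1, SNORA75 of NCL and SNORA51 of NOP56, it lay 3 bases after the ACA box in all 4 series. The distance to the box varied less than the distance to the annotated end. In SNORD70 and RF00575, near-identical snoRNAs of NOP58 between which reads could be split, the annotation runs 12 bases past the box, yet the site lay 5 bases after the box, 7 bases before the annotated end. Over all 992 annotated snoRNA and small Cajal body RNA genes, 47.8% held CTGA in the last 20 bases and 39.8% held ACA in the last 8. Of the sites 0 to 12 bases after an ACA box in all SNORA genes, 67.8% to 93.4% per series lay at 3 bases. Of those after a CTGA box in all SNORD genes, 58.4% to 62.7% per series lay 4 to 6 bases after it and 36.4% to 39.8% lay at 2 bases. The hosted C/D ends lay at 4 to 6 bases in 39 of 40 cases. That count took only the site nearest each annotated end, whereas the shares took every site. SNORD11B held a further site 2 bases after its box in 3 series, which the 39 leave out. The count and the shares are thus unlike measures, and their difference was not tested.

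**Figure D1:**
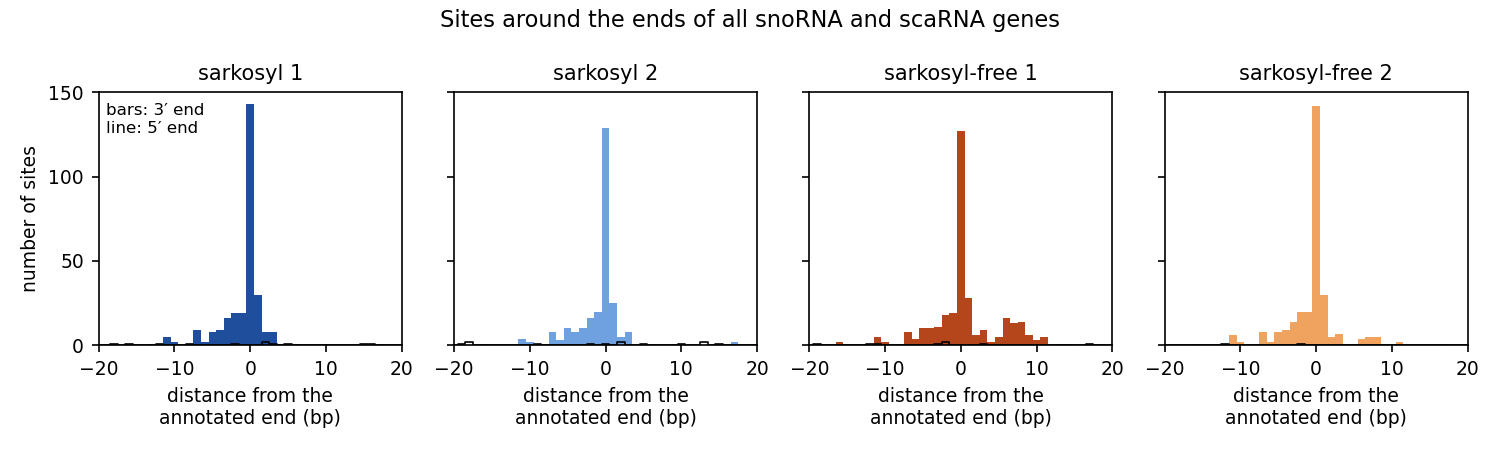
Number of sites by distance in bp from the annotated 3′ end (bars; positive values lie past the end) and 5′ end (line) of all 992 snoRNA and small Cajal body RNA genes, 1 panel per series. Each series has its peak at the last annotated base, with 143, 129, 127 and 142 sites, and close to none at the 5′ end.

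The same peak stood at the last base on both strands, which places the deposited positions on a count from 1. Over all snoRNA genes, 195 to 219 sites per series lay within 2 bp of a 3′ end, against 1 to 4 within 2 bp of a 5′ end. Sites 5 to 10 bp past the 3′ end were listed 2 and 3 times in the sarkosyl series and 57 and 17 times in the sarkosyl-free series. The tables do not separate the 3′ end of an RNA still held by a polymerase from that of a finished snoRNA, and the origin of these sites was not tested.

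Pausing times at these 13 ends were mostly above the median of the whole series with sarkosyl and below it without sarkosyl. Sites shared by all 4 series also lay low without sarkosyl, so a low place there is not particular to snoRNA ends. In sarkosyl replicates 1 and 2, the median log2 pausing time of shared sites was 0.28 and 0.35, against 0.58 and 0.42 over all sites. In sarkosyl-free replicates 1 and 2 it was 0.40 and 0.51, against 1.16 and 3.00. Relative to the median of the whole series, 12 of 13 sites were above it in each sarkosyl series, and 1 of 13 was above it in each sarkosyl-free series. The median over the 13 stood 0.42 and 0.47 log2 units above the series median with sarkosyl, and -1.25 and -1.77 log2 units without it. On that scale both sarkosyl values exceeded both sarkosyl-free values for 12 of 13 snoRNAs, where 51.9% of the 2967 sites shared by all 4 series did so. As deposited, the median pausing time at the 13 ends was 1.99 and 1.86 with sarkosyl, against 0.939 and 2.35 without it. On the deposited scale both sarkosyl values were above both sarkosyl-free values for 5 of 13, where 29.2% of shared sites did so. The same held beyond the hosted snoRNAs. Among all snoRNA genes with a site near the 3′ end, 74.3% and 72.2% lay above their series median with sarkosyl, and 7.07% and 1.84% without it. These shares were not set against those of other shared sites, which also lay low without sarkosyl.

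**Figure D2:**
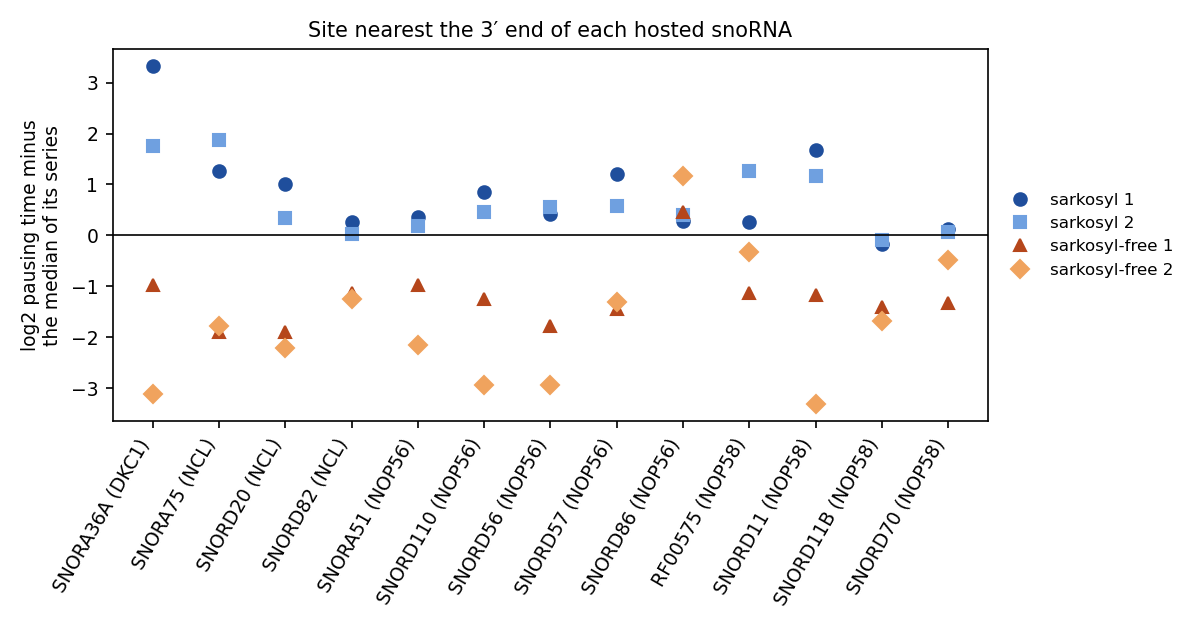
Log2 pausing time of the site nearest the 3′ end of each of the 13 snoRNAs, minus the median of its series, with the host gene in brackets and 1 symbol per series. All but SNORD86 have both sarkosyl values above both sarkosyl-free values, and the sarkosyl values of SNORD11B lie just below the line.

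DKC1 held the widest gap among the named ends, at the last base of SNORA36A, a guide for pseudouridylation. The deposited pausing time at chrX:154768659 was 14.9 and 4.52 with sarkosyl, against 1.13 and 0.929 without it. The sarkosyl values lay above the sarkosyl-free values without overlap, as 29.2% of shared sites did as deposited and 31.6% after centring. The fitted difference, sarkosyl minus sarkosyl-free, was 3.14 ± 0.89 log2 units (SE, n = 2 series per buffer) with an unadjusted p of 0.0131 and an adjusted p of 0.172 by limma. The site at 202293133 on chromosome 2, in the SNORD11 of NOP58, had pausing times of 4.76 and 3.00 with sarkosyl, against 0.987 and 0.809 without it. Its values did not overlap either, and the difference was 2.22 ± 0.75 (SE), with an adjusted p of 0.177 by limma.

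In NCL the ends of 2 snoRNAs were listed at 1 base in all 4 series. SNORA75 had 3.60 and 4.90 with sarkosyl, against 0.602 and 2.35 without it, again without overlap, and an adjusted p of 0.255 by limma. SNORD20 had 3.01 and 1.71 with sarkosyl, against 0.596 and 1.73 without it, so sarkosyl replicate 2 lay just below sarkosyl-free replicate 2. In NOP56, SNORD110 had 2.68 and 1.86 with sarkosyl, against 0.939 and 1.05 without it, without overlap. SNORD57 had 3.44 and 2.00, against 0.820 and 3.23, with overlap. SNORA51, whose values also overlapped, had a difference of 0.39 ± 0.73 log2 units (SE) and an adjusted p of 0.777 by limma. SNORD86 went the other way, with 1.81 and 1.77 with sarkosyl, against 3.08 and 17.9 without it. The neighbouring snoRNAs SNORD70 and RF00575 of NOP58 overlapped between buffers, with 1.64 and 1.41 against 0.890 and 5.71 for SNORD70 and 1.79 and 3.21 against 1.01 and 6.41 for RF00575.

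Of the 350 positions in the 7 genes, 244 were listed in 1 series, 73 in 2, 18 in 3 and 15 in all 4. Of those 15 sites, 10 lay in a snoRNA or within 5 bp of one, 66.7%, and of the positions listed in 1, 2 and 3 series 2.05%, 4.11% and 16.7% did. Of the 106 positions listed in 2 or more series 16 lay in or near a snoRNA, 15.1%, so most recurring sites lay elsewhere. Among sites in all protein-coding genes 158 of 1437 listed in all 4 series lay in a snoRNA, a smaller share than in the 7 genes. NOP56 held 6 of the 15, NOP58 held 5, NCL held 2, and NPM1 and DKC1 held 1 each, while FBL and NOLC1 held no site common to all series.

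The limma fit over the 2967 shared sites, centred on their median in each series, called 0 sites at an adjusted p of 0.05 (0% called), and 689 had an unadjusted p under 0.05, 23.2% of those tested. Among the 15 sites of the 7 genes 5 had an unadjusted p under 0.05 and 0 passed the adjusted threshold. With 1 sarkosyl-free series left out the spread comes from the 2 sarkosyl series alone, and the lone series is assumed to vary like them. On that assumption the fit called 1597 shared sites, 8 of these 15, without sarkosyl-free replicate 1, and 660, 3 of these 15, without sarkosyl-free replicate 2. The 10 sites in snoRNAs had a median difference of 1.06 log2 units, and 8 of 10 were longer with sarkosyl. Over all 209 shared snoRNA sites the median was 1.17, with 84.7% longer with sarkosyl. Outside snoRNAs the 5 remaining sites of these genes had a median of -1.78 with 1 of 5 longer, where the 2758 shared sites outside snoRNAs had a median of 0.09 and 51.6% longer.

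Of the 5 sites outside snoRNAs, 3 lay just inside a transcript start and were shorter with sarkosyl. NOP56, at 2652687 on chromosome 20 and 38 bp after the nearest upstream transcript start, had pausing times of 0.654 and 0.883 with sarkosyl, against 2.89 and 2.84 without it. A further NOP56 site 6 bp downstream, at 2652693, had 0.742 and 0.799 with sarkosyl, against 2.02 and 7.81 without it. NOP58, at 202265822 on chromosome 2 and 43 bp after a start, had 1.31 and 1.57 with sarkosyl, against 5.29 and 21.7 without it. At each of the 3 sites both sarkosyl series were below both sarkosyl-free series, as deposited and after centring on the shared sites. After that centring 25.7% of shared sites had the same order. Relative to the median of each whole series the first site overlapped between buffers, at -1.19 and -0.60 log2 units with sarkosyl against 0.38 and -1.49 without it, and the others did not. The differences were -1.78 ± 0.71, -2.23 ± 0.89 and -2.77 ± 0.90 log2 units (SE), with adjusted p-values of 0.212, 0.210 and 0.173 by limma.

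The other 2 sites outside snoRNAs showed no order by buffer. NPM1 at 171391378 on chromosome 5, 295 bp after a transcript start, had 0.766 and 0.885 with sarkosyl, against 5.71 and 0.288 without it. The intronic NOP58 site at 202272144 had 12.2 and 5.41 with sarkosyl, against 0.318 and 21.7 without it. At both, the sarkosyl-free replicates lay on opposite sides of the sarkosyl values and differed more from each other than from them.

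The base at the site differed between the series outside snoRNAs. Inside the hosted snoRNAs it differed much less, but there 10 positions were the same in all 4 series, so their base could not differ. Outside snoRNAs 5 positions of the 7 genes were shared in this way. It could be read from GENCODE transcripts for sites in an annotated exon. In the 7 genes outside snoRNAs it was C at 84.1% of 69 and 72.9% of 59 sites in the sarkosyl series, and at 50.0% of 62 and 13.5% of 37 sites in the sarkosyl-free series. G took 11.6% and 16.9% of sites with sarkosyl and 45.2% and 83.8% without it. All protein-coding genes showed the same order, with C at 74.2%, 72.7%, 50.9% and 22.5% in sarkosyl replicates 1 and 2 and sarkosyl-free replicates 1 and 2. Inside the hosted snoRNAs A or T stood at 60.0% to 68.8% of the 14 to 16 sites per series, against 2.37% to 4.50% at coding sites outside snoRNAs. Over the sites in all snoRNAs, A or T stood at 42.9% to 50.7% per series. Which of the 4 nucleotides carried a label in each run-on is not given in the sources used here, and the part of base content in the differences between buffers was not tested.

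**Figure D3:**
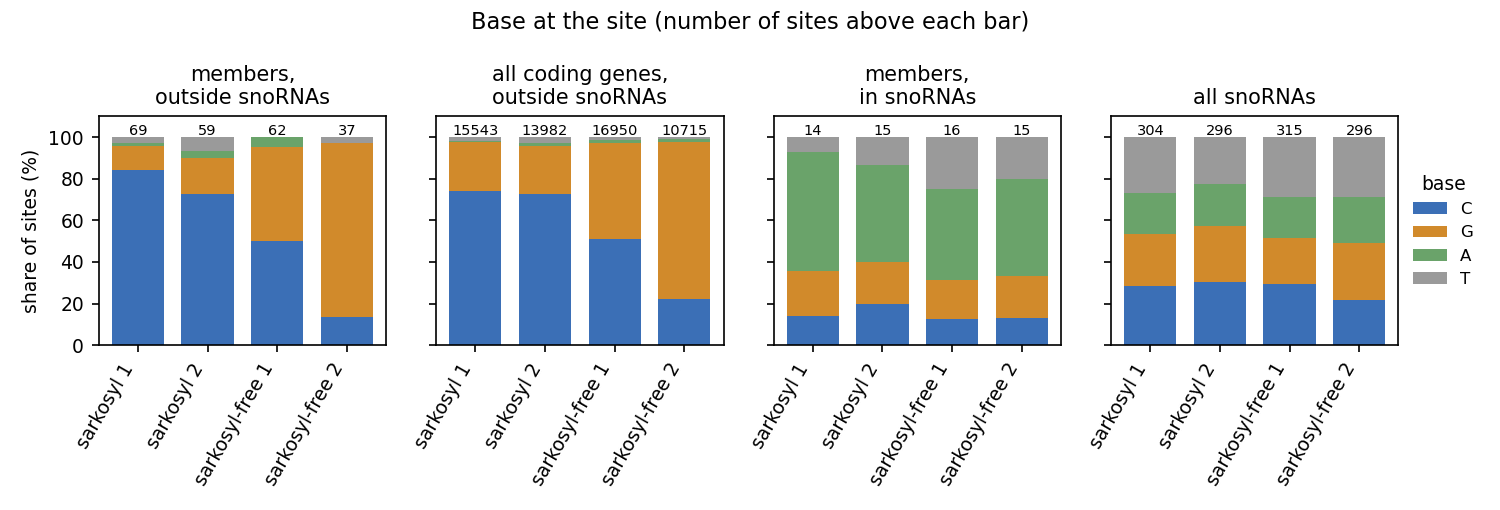
Share of sites in percent by the base at the site, for each series, in 4 classes of exonic sites, with the number of sites above each bar. Outside snoRNAs the share of C goes from 84.1% to 13.5% in the 7 genes. Inside their snoRNAs the 4 series look alike, where 10 positions are the same in all 4 series.

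Sites reproduced within a buffer but never listed in the other buffer divided by base. Outside snoRNAs, 34 positions of the 7 genes were listed in both sarkosyl series and in neither sarkosyl-free series, and 20 of them lay in an exon with a readable base, 19 of them C and 1 G. In the reverse class 23 positions were listed, 13 with a base, 2 of them C and 11 G. Over all protein-coding genes C took 82.9% of the 3791 sites with a base in the first class, and G took 70.4% of the 2379 in the second.

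Some buffer-specific sites, in or outside snoRNAs, were neighbours a few bases apart. Of 9 such pairs 3, chosen after their values were seen, are shown to place both sites in 1 stretch. Capitals mark the 2 sites of each pair, on GRCh38, on the strand of the gene.
NPM1 (plus strand, chr5:171387880-171387909): tgttctctggagcaGCgttcttttatctcc
NCL (minus strand, chr2:231457322-231457350): taggaaaacagacCaGtcatcagcctatg
NOP56 (plus strand, chr20:2652658-2652686): gccatggtgaggaGtGgttgcggggcgcg
In NPM1 the C was the sarkosyl site, with pausing times of 0.667 and 1.04, and the G just before it was the sarkosyl-free site, with 6.58 and 71.4. In NCL the C was the sarkosyl site, with 1.20 and 1.26, and the G 2 bases downstream was the sarkosyl-free site, with 7.58 and 7.04. In NOP56 both letters were G: the second held the sarkosyl site, with 0.527 and 0.630, and the first the sarkosyl-free site, with 16.4 and 100. A further C and G pair of NOP56, at 2655645 and 2655651, 6 bases apart, overlapped between buffers, with 1.92 and 0.962 at the sarkosyl site and 1.21 and 2.18 at the sarkosyl-free site. An A and A pair of NOP56, at 2656694 and 2656695, was the end of SNORD56 described above, not a pair outside snoRNAs. This pair went the opposite way, with 1.99 and 1.98 at the sarkosyl site and 0.651 and 1.05 at the sarkosyl-free site. Of 58 positions listed in both sarkosyl series, in genes with a site in both sarkosyl-free series, 15 were listed in both of those at the same base. For 4 more the nearest such site lay 1 to 10 bp downstream and for 8 it lay 1 to 10 bp upstream.

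The genes differed in how many sites they held. NOP56, the C/D core protein, held 32, 33, 27 and 21 sites (sarkosyl replicates 1 and 2, then sarkosyl-free replicates 1 and 2) in a short gene at chr20:2652145-2658393, 3.36 to 5.28 sites per kb, more per kb than 99.1% to 99.2% of protein-coding genes with a site. NPM1, at chr5:171387116-171411137, held 32, 30, 50 and 27 sites, more than 99.2% to 99.7% of those genes. NPM1 has processed pseudogenes elsewhere in the genome, and how reads with several matches were handled is not given in the sources used here. NCL, at chr2:231453531-231483641 on the minus strand, held 28, 26, 29 and 17 sites. NOP58, at chr2:202265716-202303666, held 14, 17, 28 and 14 sites.

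The other 3 genes were thinly covered. NOLC1, at chr10:102152176-102163871, held 7, 13, 14 and 5 sites, and DKC1, at chrX:154762742-154777689, held 5, 5, 11 and 4. FBL, at chr19:39834458-39846414 on the minus strand, held 7, 2 and 6 sites and had no row in sarkosyl-free replicate 2, so it entered no comparison between buffers. Its pausing times ran from 0.835 to 41.7 and were 1.39 and 1.71 in the sarkosyl series, and ran from 0.381 to 11.8 in sarkosyl-free replicate 1. Per 10000 sites of a series the 7 genes held 25.7 and 26.4 with sarkosyl, against 24.97 and 21.1 without it. Without sarkosyl-free replicate 1 the difference between buffers was 5.00 per 10000, and without sarkosyl-free replicate 2 it was 1.11. The means were 26.1 ± 0.47 and 23.0 ± 2.76 (SD, n = 2 series), and the two-sided exact permutation p was 0.33, the smallest that 2 series against 2 allow.

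**Figure D4:**
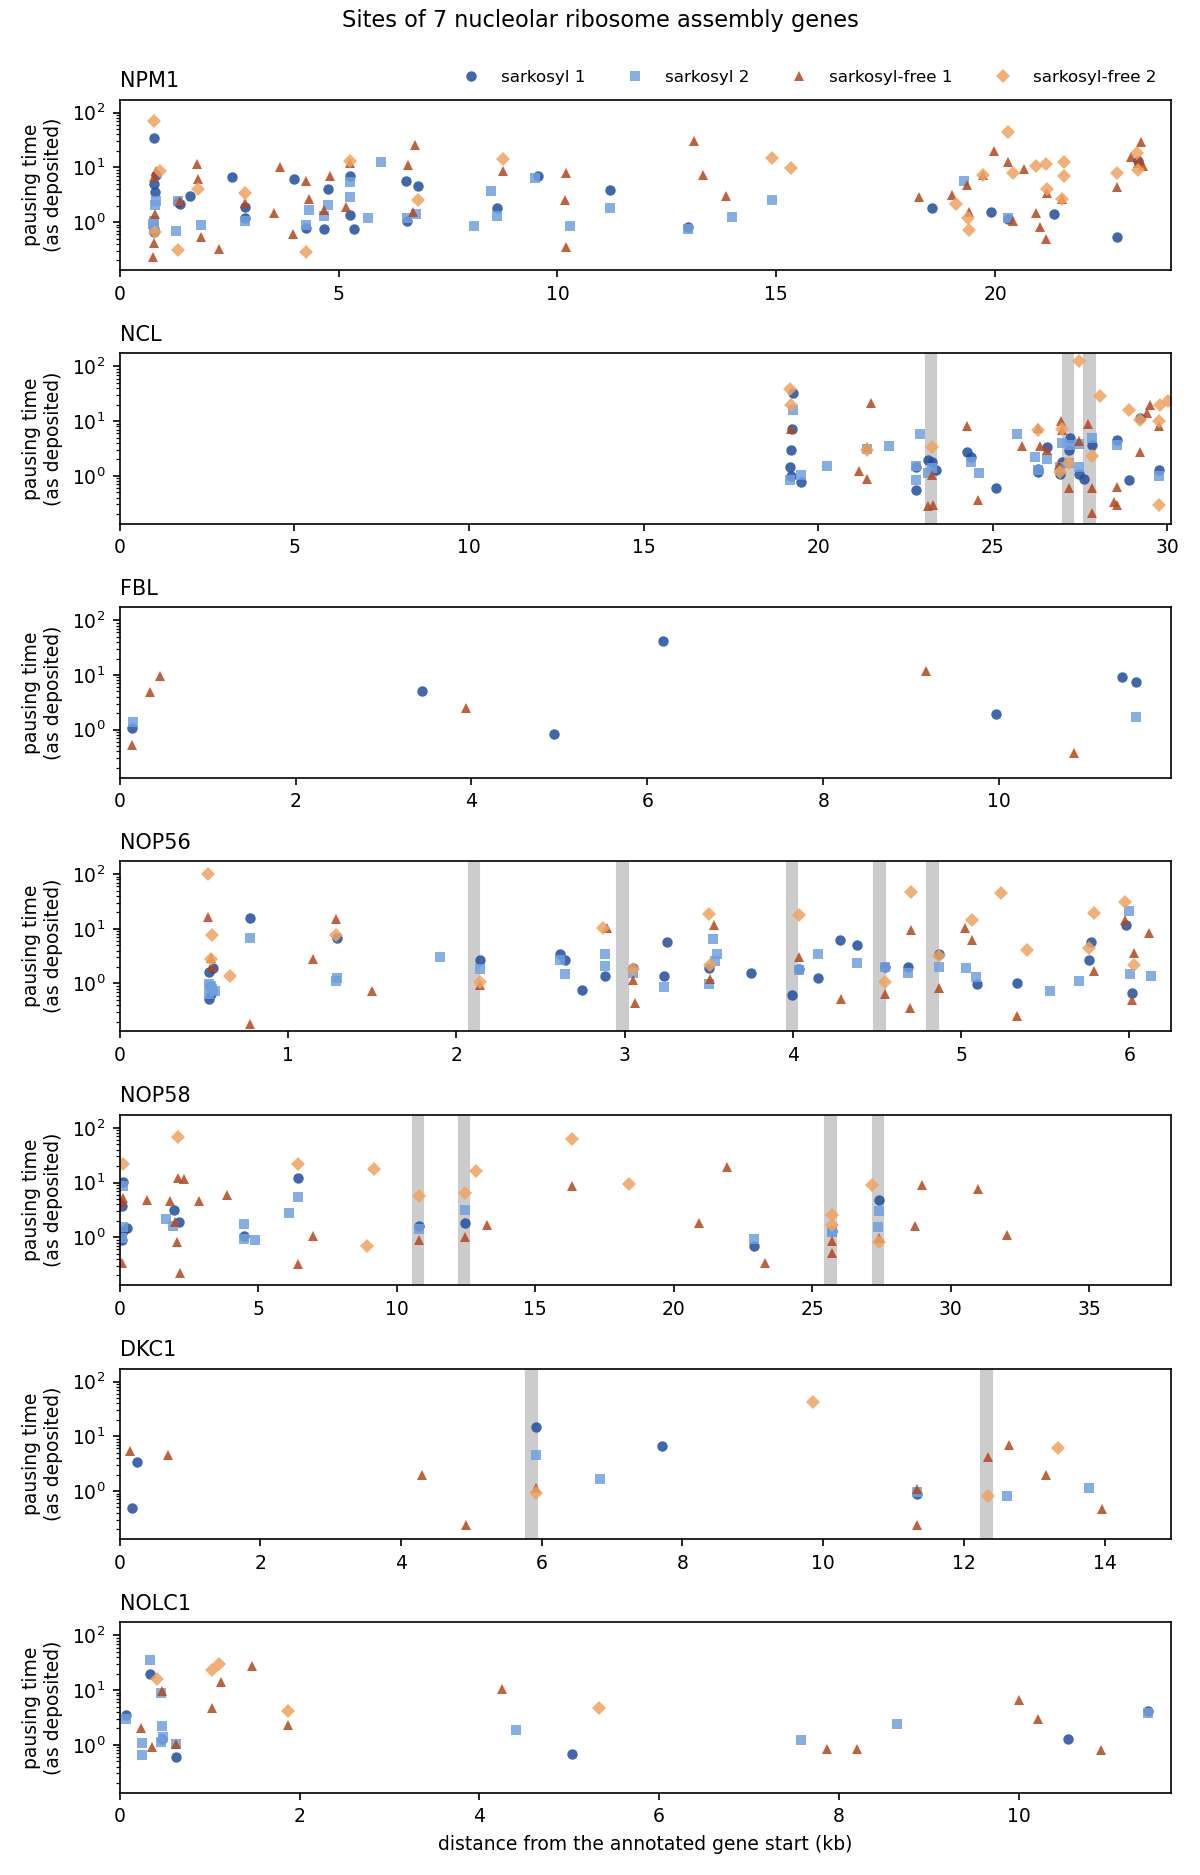
Deposited pausing time (log axis) of each site against its distance in kb from the annotated gene start, 1 panel per gene and 1 symbol per series. Grey bands mark the hosted snoRNAs and are widened to be visible. NOP56 is covered along most of its length, NCL has no site in its first 19 kb, and FBL has few sites.

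The last 25% of the span of the 7 genes held 33.6% and 28.6% of the sites with sarkosyl and 42.4% and 45.5% without it, against 16.5%, 19.2%, 22.2% and 24.3% in all protein-coding genes. NCL gave 22 of 42 and 20 of 36 of these sites with sarkosyl and 24 of 70 and 14 of 40 without it. Its annotated gene start lies 19157 bp upstream of the RefSeq start at 231464484 (GRCh38.p14), and its sites begin 19189 bp after the annotated start. Without NCL the sarkosyl shares came to 20.6% and 16%, against 33.8% and 36.6% in the sarkosyl-free series, so the sarkosyl shares lay near those of all coding genes, below them in replicate 2. The difference was not tested. In NPM1, by contrast, the last 25% held 6 and 2 sites with sarkosyl, against 20 and 15 without it. Sites of the 7 genes recurred in the second series of their buffer at 47.2%, 46.8%, 29.7% and 55.7%, against 34.7%, 34.3%, 18.3% and 30.6% in all protein-coding genes.

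Near the RefSeq starts, within 100 bp downstream, NPM1 held 6, 5, 5 and 2 sites, NOP56 held 6, 5, 3 and 3, and NCL held 4, 1, 1 and 2. DKC1 held 1 site there in replicate 1 of each buffer and FBL held none. NOP58 and NOLC1 had no entry in that table. In NOP56 the deposited pausing times were apart at the start, at 0.527 to 1.88 and 0.630 to 0.962 in the sarkosyl series and 2.02 to 16.4 and 2.84 to 100 in the sarkosyl-free series. Relative to the median of each series these ranges overlapped, at -1.50 to 0.33 and -1.09 to -0.48 log2 units with sarkosyl and -0.14 to 2.88 and -1.49 to 3.64 without it. In NPM1 the deposited ranges overlapped, with 0.667 to 34.5 and 0.768 to 2.38 with sarkosyl and 0.229 to 8.62 and 0.664 to 71.4 without it.

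Sites within 300 bp of the annotated gene start, compared with the rest of the same gene, could be set side by side in few of the genes, since the annotated start of NPM1, NCL and NOP56 lies upstream of their first sites. With at least 2 sites in each class, the median over genes was -1.31 and -0.44 log2 units with sarkosyl, from NOP58 and DKC1 in replicate 1 and from NOP58 and NOLC1 in replicate 2. It was 1.38 in sarkosyl-free replicate 1, from NOP58 alone, and sarkosyl-free replicate 2 gave no value. Over all protein-coding genes it was -0.42, -0.34, -0.29 and -0.39. With any annotated transcript start in place of the gene start, the values of the 7 genes were 0.37 and 0.46 with sarkosyl, against -0.28 and 0.21 without it, over 4 to 7 genes. The change of start also changed which genes entered: NOP58 kept its sign in sarkosyl replicate 1, at -0.29 and -0.11, and in sarkosyl-free replicate 1, at 1.38 and 0.26, and went from -0.0024 to 0.53 in sarkosyl replicate 2.

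The longest and shortest sites found in both series of a buffer lay in different places. With sarkosyl the longest were in NOLC1 at 102152512 on chromosome 10, 336 bp after the gene start, with 20 and 35.7, and in NCL at 231464373 on chromosome 2, with 33.3 and 16.1. NOP56 at 2652920 on chromosome 20 had 15.6 and 6.90, and NOP58 at 202265835 had 10.2 and 8.47. Of these 4 sites only that of NOP56 had a sarkosyl-free value, 0.183 in replicate 1, the shortest of NOP56 in that series. Without sarkosyl the longest was in NOP56 at 2652671, with 16.4 and 100, and the next in NOP58 at 202282032, with 8.70 and 62.5, and in NPM1 at 171407410, with 12.3 and 43.5. Among sites found in both sarkosyl-free series, the shortest of NCL, NOP56, NOP58 and DKC1 were snoRNA ends, at SNORD20, SNORD56, SNORD11 and SNORA36A. DKC1 had only 2 such sites, both in snoRNAs, so its shortest could not lie elsewhere. NCL had 8, NOP56 15 and NOP58 8, several of them also in snoRNAs. The shortest of NPM1, which hosts no snoRNA, was at 171406509 with 1.53 and 0.725. Replicates lay closer together with sarkosyl. The median absolute difference between replicates was 0.57 log2 units over 59 sites with sarkosyl and 1.16 over 49 sites without it, against 0.61 and 1.70 over all sites.

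Averaged over a gene, the 7 genes showed no buffer difference past the threshold. The limma fit used the median log2 pausing time of each of 1769 genes with at least 3 sites in every series, centred per series, and called 0 genes at an adjusted p of 0.05 (0% called), with 165 at an unadjusted p under 0.05, 9.33%. Without sarkosyl-free replicate 1, with the spread taken from the sarkosyl series alone, it called 99 genes, none of them among the 7. Of the 7 genes 6 were tested and 0 had an unadjusted p under 0.05. DKC1 had the widest difference, with centred medians of 1.07 and -0.33 with sarkosyl, against -0.35 and -1.84 without it. Both sarkosyl medians of DKC1 lay above both sarkosyl-free medians, as did those of 24% of the genes tested, and the difference was 1.47 ± 0.79 log2 units (SE) with an adjusted p of 0.632 by limma. With 1 series left out the DKC1 difference ran from 0.72, without sarkosyl-free replicate 2, to 2.21, without sarkosyl-free replicate 1. It rested on 4 to 11 sites per series, of which the end of SNORA36A was listed in all 4, and without snoRNA sites DKC1 had too few sites to test.

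NOP56 had centred medians of 0.21 and 0.11 with sarkosyl, against -0.29 and -0.15 without it, without overlap, and a difference of 0.38 ± 0.54 (SE), with an adjusted p of 0.846 by limma. NOP58 had 0.06 and 0.12 with sarkosyl, against -0.48 and 0.09 without it, a difference of 0.29 ± 0.57. Without snoRNA sites the difference became -0.04 in NOP56 and -0.82 in NOP58, so its sign turned in these hosts. In NCL, also a host, it went from -0.14 to -0.44 and kept its sign. Without centring on the series medians the differences of NOP56, NOP58 and DKC1 were -1.20, -1.29 and -0.11. NPM1, NCL and NOLC1 had differences of -0.19 ± 0.60, -0.14 ± 0.55 and -0.50 ± 0.62 (SE), and their sarkosyl and sarkosyl-free medians overlapped. The median difference over the 6 genes was 0.07, and over all 1769 genes it was 0.14.

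**Figure D5:**
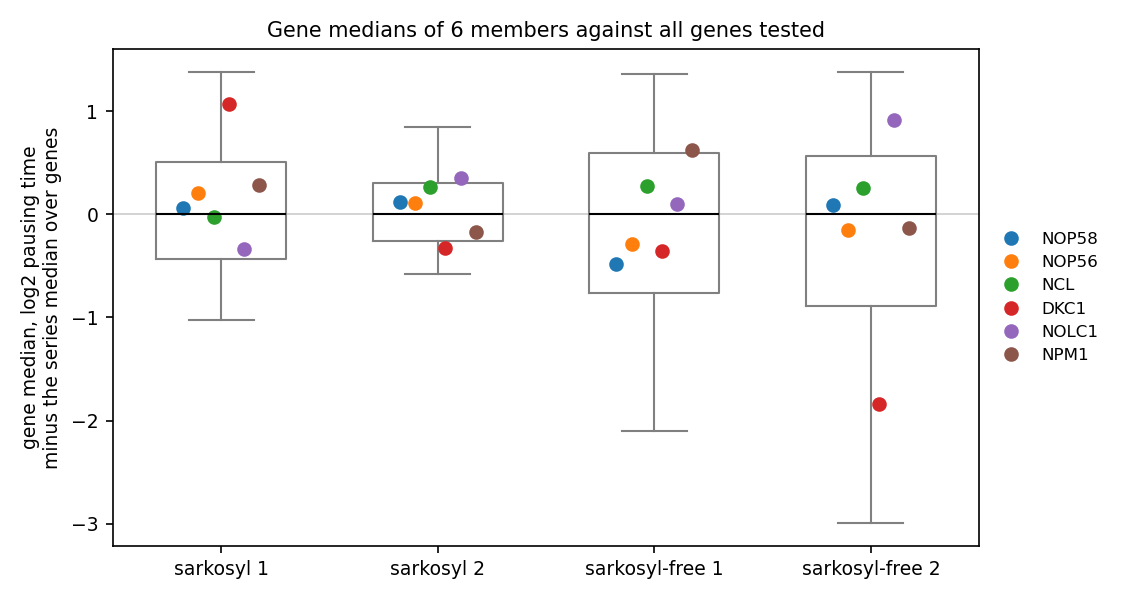
Median log2 pausing time of each of the 6 genes tested, minus the median over genes in the same series (points), with boxes for the quartiles and whiskers from percentile 5 to 95 of all 1769 genes. The 6 genes lie inside the whiskers in each series, and DKC1 is the one that moves most, from 1.07 to -1.84.

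Other genes of ribosome assembly gave a similar picture. Of a list of 86, which covers polymerase I subunits, processome proteins, helicases and export factors, 71 to 79 held a site in each series and 22 could be tested. None of the 22 passed the adjusted threshold by limma, 2 had an unadjusted p under 0.05 (9.09%, beside 9.33% of all genes), 12 were longer with sarkosyl (54.5%, beside 56.2% of all genes), and the median difference was 0.16 log2 units, beside 0.14 over all genes. The smallest unadjusted p-values were those of PPAN, a large subunit assembly factor, at 2.32 ± 0.74 (SE, adjusted p = 0.452), NOP2, a ribosomal RNA methyltransferase, at 2.31 ± 0.91 (adjusted p = 0.509), and NOL11, a processome protein, at 1.38 ± 0.62 (adjusted p = 0.583), all by limma. The 3 genes whose 4 centred medians were nearest to the median profile of the 6 genes, by Euclidean distance over the 4 series, were KPNA2 at 0.20, AC003006.1 at 0.24 and MMS22L at 0.25 log2 units.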

How the data were processed

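Per the submitters' processing notes the reads were handled with cutadapt 1.14, HISAT2 2.1.0, SAMtools and bedtools on hg38. The authors deposited 4 tables of fitted rates, and per the file headers each row holds the mean, standard deviation, quartiles and median of a rate (other quantities, with no stated unit) and a pausing time. In every row the pausing time equalled 1 over the deposited median rate. How sites were called and how the model was fitted are not given in the sources used here. Rates were rounded to 3 decimals by the authors, so long times take few values.

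Sites were assigned to GENCODE 29 genes by position and strand with Python 3.11.15, pandas 2.3.3 and numpy 2.4.6. Buffers were compared with limma 3.58.1 in R 4.3.3 on centred log2 pausing times, with Benjamini-Hochberg adjustment over all genes or shared sites and a threshold of 0.05. The fit was tested on simulated data with normal noise and the same spread for all features and both buffers. In the data replicates lay closer together with sarkosyl, so the simulation does not show how the fit behaves at unequal spread. The permutation test used scipy 1.17.1, and matplotlib 3.10.9 drew the plots. Promoter starts came from RefSeq on GRCh38.p14, where 5 of the 7 genes matched. Whether equal replicate numbers pair the samples across buffers is not given in the labels, and the reported fit was unpaired. Replicate differences correlated between buffers at r = 0.01 over 2967 sites and 0.06 over 1769 genes, which cannot settle how the samples were prepared.

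The members and lists were chosen with earlier results of these data known. Named sites were those in all 4 series, or the 2 longest and 2 shortest where a gene had over 5, and the longest and shortest found in both series of a buffer. All 6 such sites of NOP56 were described. Of the other list the 3 genes with the smallest unadjusted p-values were named, and the 3 genes nearest in profile. The neighbouring pairs and snoRNA ends were chosen after their values were seen. Alternatives covered centring, site filters, starts, denominators, a replicate block and leaving out each series.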

Additional observations from a re-analysis of the deposited data

Results flagged for a closer look

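The site at the 3′ end of the hosted snoRNAs lay on opposite sides of the median of its whole series in the 2 buffers. Its median over 13 snoRNAs was 0.42 and 0.47 log2 units above the series median in the sarkosyl series and lay at -1.25 and -1.77 log2 units without sarkosyl. This difference between buffers was not tested. Shared sites in general also lay below the series median without sarkosyl. Their median log2 pausing time was 0.40 and 0.51 in sarkosyl-free replicates 1 and 2, against 1.16 and 3.00 over all sites. On that scale 51.9% of the 2967 shared sites had both sarkosyl values above both sarkosyl-free values. As deposited, with no reference to the series median, the medians were 1.99 and 1.86 with sarkosyl, against 0.939 and 2.35 without it.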

How the results depend on the processing

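The gene fit called 0 to 99 genes when 1 series was left out, with 99 without sarkosyl-free replicate 1, and 0 under every other setting tried. The site fit called 0 to 1597 sites when 1 series was left out, 158 after quantile normalization and 161 with a replicate block. Of the 15 sites of the 7 genes these calls took 8 without sarkosyl-free replicate 1, 3 without sarkosyl-free replicate 2, 1 after quantile normalization (the end of SNORA36A) and 0 with the block. Whether the replicate numbers pair the samples is not known, so the paired fit, the replicate block, is given only here. It called 0 genes. Of the 22 other genes tested, 0 to 3 were called when 1 series was left out. Leaving out 1 series of a buffer assumes that the lone series varies like the other buffer.

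The median difference over the 6 genes was 0.07 and turned to -1.51 without centring, -0.12 with 1 site per series, -0.033 with sites found in both series of the buffer and -0.44 without snoRNA sites. It was 0.14 after quantile normalization, 0.15 with 10 sites, 0.14 without rates under 0.02, 0.14 without sites within 300 bp of any transcript start, and 0.093 to 0.18 when 1 series was left out. The settings on 10 sites and on both series held 4 genes, and those on snoRNA sites and any start held 5, without DKC1; those 5 had a median of -0.14 in the reported fit. In single genes, 77 of 90 alternatives kept the sign and 0 passed the threshold. NPM1 turned to 0.04 without sarkosyl replicate 2, 0.18 without sarkosyl-free replicate 1 and 0.0071 with the mean in place of the median. With 1 series left out NPM1 ranged from -0.56 to 0.18, NCL from -0.29 to 0.0017, NOP58 from 0.0018 to 0.57, DKC1 from 0.72 to 2.21 and NOLC1 from -0.91 to -0.091. NCL turned to 0.0017 without sarkosyl replicate 1, 0.14 with the mean, 0.12 with sites found in both series and 0.14 without sites near any start. NOP56 turned to -1.20 without centring, -0.19 with sites found in both series and -0.044 without snoRNA sites. NOP58 turned to -1.29 without centring and -0.82 without snoRNA sites, and DKC1 to -0.11 without centring. The median over the 10 shared snoRNA sites ranged from 0.35 to 1.54, with 6 to 9 of 10 longer with sarkosyl.

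The mean of the start against the rest was -0.87 with sarkosyl, 0.081 with a 100 bp window, -0.16 with 500 bp, 0.42 with any transcript start and -0.17 with RefSeq starts, and -1.31 to -0.44 when 1 series was left out. Without sarkosyl it was 1.38, -0.54, 0.99, -0.032 and -0.17 in the same order. The share of sites differed by 3.06 per 10000 between buffers, by 1.11 to 5.00 when 1 series was left out, and by 8.43 per 10000 sites in protein-coding genes. Causes were not tested. Settings added after seeing the data were those on snoRNA sites, any transcript start in the gene fit and RefSeq starts. The unknown depth limits each comparison.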
